A study of Mus musculus with 8 samples.

Results

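The genes described here are 10 dendritic cell factors and markers, followed in the iron positive and iron negative fractions of a mouse tumor. They were taken by symbol from a fixed list, Flt3, Zbtb46, Batf3, Irf4, Irf8, Xcr1, Cd209a, Fscn1, Ccr7 and Dnase1l3, and make up 10 of 35975 genes for which transcript estimates could be summed. The samples were wild type (WT) C57BL/6 mice carrying syngeneic fibrosarcoma, a connective tissue tumor, implanted under the skin. All 8 libraries share that genotype and tumor, and no drug, age or sex is named in the labels. Tumors were digested with collagenase and DNase, red cells were lysed, and the suspension was run over magnetic columns, which hold back cells that carry iron. Bulk RNA was sequenced from 4 iron positive eluates and 4 iron negative flowthroughs, and the tags 3L, 3R, 4R and 5L occur once in each fraction. Macrophages are named in the title of the series, yet no sort by antibody is described, and whether a tag is a separate animal is not stated. The p-values therefore measure the spread between these libraries, which may in part be technical.

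Conventional dendritic cells take up antigen in tissues, mature, and carry it to lymph nodes, where they prime T cells. They arise from bone marrow progenitors under the cytokine FLT3 ligand, and the transcription factors IRF8 and BATF3 are needed for the type 1 subset (cDC1) while IRF4 acts in the type 2 subset (cDC2). Several of these genes are not private to dendritic cells. Zbtb46 is known from endothelium, Fscn1 from endothelium and migrating tumor cells, and Irf8 from macrophages, and Dnase1l3 from macrophages and the sinusoidal endothelium of the liver.

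In these libraries the receptors Flt3, Xcr1 and Cd209a were at or near 0, while Irf8, Dnase1l3, Batf3 and Fscn1 stood above 10 TPM in mean. Levels can be compared between genes only per length, so the order is given in TPM, which corrects for transcript length and depth. In the iron negative libraries Irf8 led at 190 ± 8.16 TPM (mean ± SD, n = 4), followed by Dnase1l3 at 29.1 ± 7.52, Batf3 at 28.5 ± 2.63 and Fscn1 at 11.8 ± 4.83 TPM. Irf4 at 1.34 ± 0.50, Ccr7 at 1.19 ± 1.09 and Zbtb46 at 0.48 ± 0.16 TPM formed a low group. Xcr1, Flt3 and Cd209a came last, at 0.12 ± 0.03, 0.07 ± 0.02 and 0.06 ± 0.07 TPM. Neighbours whose 4 values overlapped were Dnase1l3 with Batf3, Irf4 with Ccr7, Ccr7 with Zbtb46, Xcr1 with Flt3, and Flt3 with Cd209a. Irf8 exceeded 94.6% of the 13343 tested genes in mean TPM, Zbtb46 9.25% and Xcr1 1.82%.

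The order of the means changed in the iron positive libraries mainly through Fscn1 and Zbtb46. Irf8 stayed first at 151 ± 11.1 TPM, and Fscn1 came next at 51.9 ± 46.5 TPM, with a range from 11.7 to 115 that overlapped Batf3 at 15.9 ± 4.36. Dnase1l3 followed at 14.8 ± 2.84 TPM, overlapping Batf3, and Zbtb46 at 1.98 ± 1.15 TPM, overlapping Irf4. Below them Irf4 stood at 1.25 ± 0.63, Ccr7 at 0.72 ± 0.40, Cd209a at 0.20 ± 0.26, Xcr1 at 0.17 ± 0.05 and Flt3 at 0.09 ± 0.02 TPM, each overlapping the next.

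**Figure D1:**
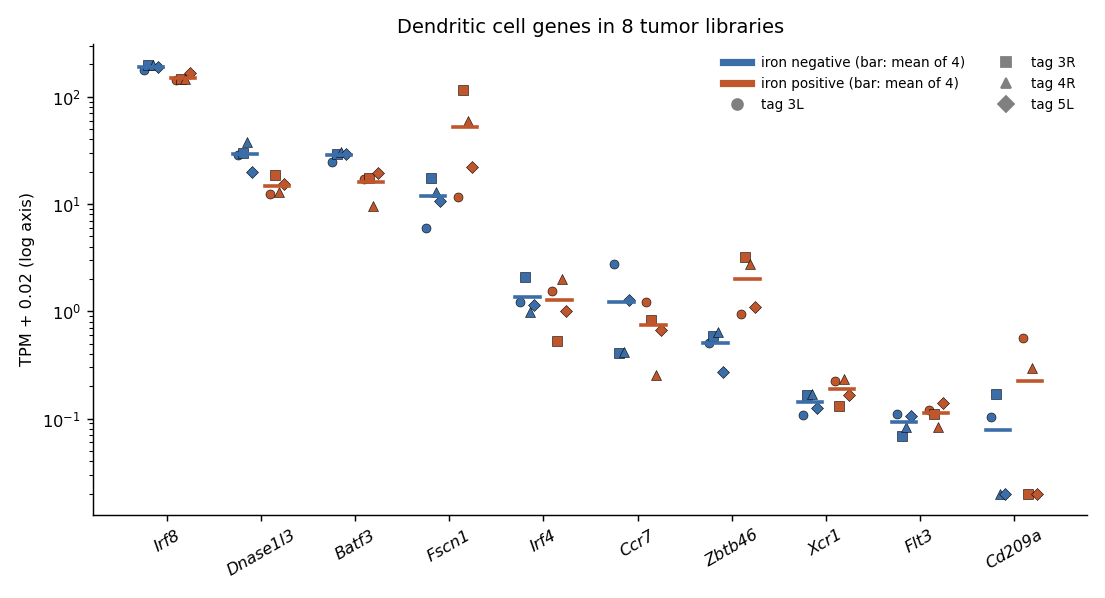
TPM of the 10 genes in each library, on a log axis after adding 0.02 so that libraries at 0 can be drawn, with iron negative libraries in blue, iron positive ones in orange, marker shapes for the tags and bars for the mean of 4. Irf8, Dnase1l3 and Batf3 sit lower and Zbtb46 higher in every iron positive library, and Xcr1, Flt3 and Cd209a stay under 1 TPM in all 8.

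The label of a dendritic cell lineage was checked against markers of each subset, and these ranged from scarce to abundant. Clec9a, a receptor for dead cells on cDC1, ranged from 0.13 to 1.22 CPM, a count scaled for depth but not for length. Siglech, a marker of plasmacytoid dendritic cells, reached at most 0.76 CPM, and 8 of 15 plasmacytoid genes stayed below 1 CPM in every library. Both Clec9a and Siglech were named outside the rule given with the processing. Other genes of their lists were abundant in the iron negative libraries. Cadm1 and Naaa of the cDC1 list stood there at 116 ± 18.5 and 62.2 ± 4.28 CPM, and Lair1 of the plasmacytoid list at 294 ± 14.7 CPM. The macrophage list of 13 genes summed to between 67843 and 91338 TPM, with Apoe alone at a mean of 48652 TPM. By the same measure the cDC1 list summed to between 297 and 429 TPM. The plasmacytoid list summed to between 919 and 1296 TPM, and the mature migratory list to between 893 and 1274 TPM. The cDC2 and monocyte-derived list summed to between 2900 and 3749 TPM, with Fcer1g at a mean of 2159 TPM. The 10 genes are therefore described by name and not as a measure of dendritic cell number. In bulk RNA, fewer cells of a type and less RNA per cell cannot be told apart.

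The DNA just before the start site is shown for the factors Irf8 and Batf3, which were lower in the iron positive libraries, and for Fscn1, which was higher in all 4 same-tag pairs. All sequences are from RefSeq on GRCm38.p6, plus strand, and end where an annotated coding transcript begins. A RefSeq window was found for 8 of the 10 genes. Capitals mark matches, on either strand, to 6 motifs: the interferon-stimulated response element GAAANNGAAA, the ETS-IRF composite element GGAANNGAAA, the AP-1 site TGANTCA, the PU.1 core GGAAGT, the TATA box TATAAA and the cyclic AMP response element TGACGTCA. The last 2 were added after the sequences had been seen, and no match in the printed windows overlaps another.
Irf8, chr8:120736108-120736357: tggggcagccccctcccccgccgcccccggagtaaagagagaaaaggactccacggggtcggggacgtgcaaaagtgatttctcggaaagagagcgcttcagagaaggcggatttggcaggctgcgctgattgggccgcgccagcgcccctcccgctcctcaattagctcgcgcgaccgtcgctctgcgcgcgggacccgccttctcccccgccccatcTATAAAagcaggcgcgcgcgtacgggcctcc
Batf3, chr1:191098164-191098324: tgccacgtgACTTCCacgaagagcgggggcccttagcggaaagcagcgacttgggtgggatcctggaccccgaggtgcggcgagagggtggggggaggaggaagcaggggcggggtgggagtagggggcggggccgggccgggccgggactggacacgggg
Fscn1, chr5:142960105-142960342: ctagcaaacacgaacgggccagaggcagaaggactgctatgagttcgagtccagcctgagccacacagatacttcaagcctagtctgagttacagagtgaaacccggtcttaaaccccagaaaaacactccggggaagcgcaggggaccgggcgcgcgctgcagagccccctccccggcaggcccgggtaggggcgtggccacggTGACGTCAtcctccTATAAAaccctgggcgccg

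Irf8 and Fscn1 each hold a TATA box from 31 to 26 bases before the RefSeq start, a motif found in 12.4% of all 32851 windows of 250 bases. The Fscn1 window adds a cyclic AMP response element 45 to 38 bases before the start, found in 1.55% of windows. The Batf3 window, which lies inside the first exon or intron of noncoding Batf3 transcripts, holds a PU.1 core 241 to 236 bases before the RefSeq start. That core occurs in 19.7% of windows. None of these 3 windows holds the interferon-stimulated element (2.98% of windows), the ETS-IRF element (2.30%) or the AP-1 site (6.75%). The printed Batf3 and Fscn1 windows, of 161 and 238 bases, end before the RefSeq start from which positions are counted. They are shorter than the 250 bases behind these percentages. A match describes letters in this window only.

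Among the lineage factors, Irf8 and Batf3 fell in the iron positive fraction. Irf8 (chr8:120736358-120756694, plus strand) encodes a factor for cDC1 and monocyte development that is also active in macrophages. In the iron negative libraries 3L, 3R, 4R and 5L it stood at 351, 363, 360 and 350.3 CPM. The iron positive libraries, in the same order, gave 283, 254, 258 and 298 CPM. The groups did not overlap and every tag pair moved the same way, although the step was small. The log2 fold change, iron positive over iron negative, was -0.38 ± 0.07 (SE; adjusted p = 0.0176 by the quasi-likelihood test of edgeR with Benjamini-Hochberg adjustment). A second gene on the same strand, Gm20388, overlaps Irf8 and held at most 50 of the estimated counts of a library, against 5033 to 8056 for Irf8.

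Batf3 (chr1:191097847-191108945, plus strand), the partner of IRF8 in cDC1, moved further from a lower level. Its iron negative values were 9.50, 10.9, 11.02 and 11.5 CPM, and the iron positive values were 7.28, 6.70, 3.44 and 7.0 CPM. All iron positive libraries lay below all iron negative ones, and 4R was the lowest. On the log2 scale the difference was -0.81 ± 0.22 (edgeR adjusted p = 0.0449), and without the iron positive library 4R it was -0.62 with adjusted p = 0.0413. The call was lost without the iron positive 3R (adjusted p = 0.0563), with library totals only (0.0583) and with limma voom (0.0568). It was also lost without any 1 of the iron negative libraries (0.0871 to 0.111) and with macrophage list scaling (-0.58, adjusted p = 0.0978). The coding transcript Batf3-201 measured 19.2 ± 2.54 and 11.4 ± 3.28 TPM in the iron negative and positive libraries, and the noncoding ones 9.28 ± 1.14 and 4.50 ± 1.28 TPM, with no test of either.

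Irf4 (chr13:30749226-30766976, plus strand), the cDC2 factor, did not pass the test. It measured 4.6, 3.51, 3.4 and 4.22 CPM in the iron negative libraries and 2.99, 1.76, 1.53 and 3.57 CPM in the iron positive ones. The value was lower in 4 of 4 tag pairs, but the groups overlapped through 5L. The log2 fold change was -0.67 ± 0.29 (edgeR adjusted p = 0.153). It was -0.17 with length offsets, and limma gave -0.18 on log2(TPM + 0.1) and -0.08 on log2(TPM + 1). Irf4 is low enough that its TPM is unsteady: the 360-base transcript Irf4-203 was assigned 1.5 to 3 counts in 3 libraries and added up to 1.56 TPM there.

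Zbtb46 (chr2:181387762-181459426, minus strand) was the member called higher. It encodes a zinc finger repressor used to mark conventional dendritic cells and their committed precursors, and endothelium expresses it too. It stood at 1.19, 1.36, 1.61 and 0.65 CPM in the iron negative libraries and at 2.14, 7.86, 7.28 and 2.95 CPM in the iron positive ones. The groups did not overlap, and the iron positive 3R and 4R stood well above 3L and 5L. The log2 fold change was 2.07 ± 0.48 (edgeR adjusted p = 0.0280). Without the iron positive library 4R it was 1.84 with adjusted p = 0.0763, and limma voom gave 1.92 with adjusted p = 0.0946. On the log2(TPM + 0.1) and log2(TPM + 1) scales, limma gave 1.70 (adjusted p = 0.0502) and 0.93 (adjusted p = 0.0786).

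Of the 8 members that passed the filter on low counts, 1 was called higher and 3 lower. Over all 13343 genes tested, 8.49% were called higher and 5.21% lower. Groups did not overlap for 1 member above and 3 below, against 11.2% and 10.3% of all tested genes. These members had to hold enough counts to be tested, so the counts describe the 8 and not all 10. The calls changed when 1 iron negative library was left out: without 3L, 3R or 4R, edgeR called none of the members and none of all genes. In those 3 fits 2 members were higher and 3 lower at an unadjusted p under 0.05, as were 2066 to 2145 and 1452 to 1601 of all genes. Without the iron negative 5L, 1 member (Dnase1l3) was called, at adjusted p = 0.0403, among 26 higher and 12 lower genes in all.

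Because the tags were taken to pair the fractions, a fit that blocks on the tag follows. In it 2 members were called higher and 3 lower, against 12.8% and 9.39% of all tested genes. The added member was Fscn1 (chr5:142960343-142973185, plus strand), which encodes fascin, an actin bundler of the protrusions of mature dendritic cells. The iron negative libraries gave 11.1, 32.6, 24.2 and 19.2 CPM and the iron positive ones 21.6, 191, 96.7 and 38.7 CPM. Each iron positive library exceeded its own tag partner, but 3L in the iron positive group lay below 3R and 4R in the iron negative group. The log2 fold change was 2.0 ± 0.65 without the block (edgeR adjusted p = 0.0748) and 1.67 ± 0.27 with it (adjusted p = 0.00851). Without the iron positive library 3R, the highest, it was 1.27, and without the iron positive 3L it was called in the unblocked fit at 2.31 (adjusted p = 0.0285).

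Dnase1l3 (chr14:7964533-7994573, minus strand), a secreted enzyme that digests DNA in chromatin and on vesicles, had the steepest called fall of the members. It measured 108, 103, 132 and 73.3 CPM in the iron negative libraries and 47.1, 64.1, 43.1 and 53.1 CPM in the iron positive ones. The lowest iron negative value, in 5L, still exceeded the highest iron positive one, in 3R. The difference was -1.01 ± 0.18 on the log2 scale (edgeR adjusted p = 0.0183).

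Ccr7 (chr11:99144196-99155077, minus strand), the receptor that guides mature dendritic cells to lymph nodes, did not separate the fractions. Its iron negative values were 4.02, 0.54, 0.54 and 1.78 CPM and its iron positive values 1.74, 1.06, 0.31 and 0.88 CPM. The highest value of each group came from 3L, and the spread between tags was wider than the difference between fractions. The log2 fold change was -0.79 ± 0.73 (edgeR adjusted p = 0.502) and turned to 0.06 without the iron negative 3L.

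The remaining receptors were too scarce for a comparison at this depth. Xcr1 (chr9:123852315-123862029, minus strand), the XCL1 receptor of cDC1, held 7 to 11 estimated counts in the iron negative and 7 to 15 in the iron positive libraries. Its log2 fold change was 0.42 ± 0.33 (edgeR adjusted p = 0.431). Flt3 (chr5:147330741-147400489, minus strand), the receptor for FLT3 ligand, totalled 19 counts over the iron negative libraries and 23 over the iron positive ones. The ratio, corrected for depth, was 1.25 with an exact 95% interval from 0.65 to 2.43 that covers counting error only. Cd209a (chr8:3743397-3748984, minus strand), a lectin of cDC2 and monocyte-derived cells, was counted 2, 3, 0 and 0 times and then 10, 0, 4 and 0 times. A count of 0 allows up to 3 counts, which is 0.13 to 0.15 CPM in these libraries. Flt3 and Cd209a did not pass the filter and have no test.

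The ligands of these receptors were as scarce, apart from Flt3l. Flt3l, the dendritic cell growth factor, measured 7.94 ± 0.36 CPM in the iron negative and 7.53 ± 0.56 CPM in the iron positive libraries (log2 fold change -0.08 ± 0.10, edgeR adjusted p = 0.658). Xcl1, the XCR1 ligand, was at most 0.36 CPM. Of the CCR7 ligands, Ccl19 and Ccl21b were listed at 0 in all 8 libraries. Ccl21a, named after its values were seen, reached 0.60 and 1.26 CPM in the iron positive 3L and 3R and was 0.09 CPM or less elsewhere.

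**Figure D2:**
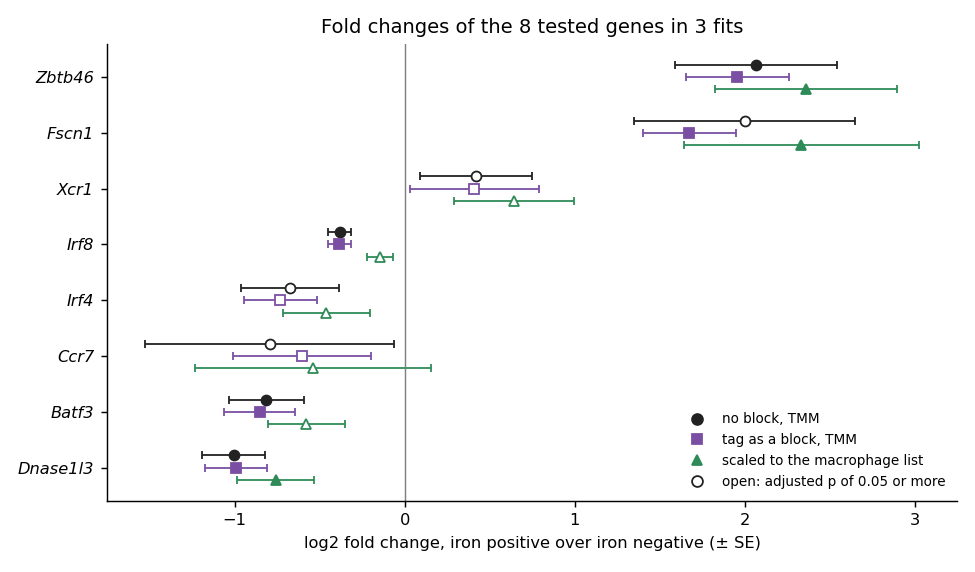
Log2 fold changes (iron positive over iron negative, ± SE) of the 8 tested members in 3 edgeR fits, with filled symbols for an adjusted p under 0.05. Zbtb46 and Dnase1l3 are filled in all 3 fits, Irf8 and Batf3 are open when scaled to the macrophage list, and Fscn1 is open only in the TMM fit without the block.

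Marker genes of the endothelial, pericyte and fibroblast lists also differed between the fractions. Zbtb46 and Fscn1 moved with the sums of these lists, and Irf8, Batf3, Irf4 and Dnase1l3 moved the other way. All 15 endothelial genes rose (median log2 fold change 5.26). Their summed level was 20.3 to 43.5 TPM in the iron negative and 106 to 1091 TPM in the iron positive libraries. None of them was at 0 throughout. Vwf, the von Willebrand factor, went from 4.49 ± 1.45 to 88.1 ± 77.1 CPM, and Kdr, a VEGF receptor, from 2.96 ± 0.77 to 48.8 ± 40.1 CPM. Robo4 and the arterial factor Sox17 had log2 fold changes of 5.58 ± 0.94 and 5.91 ± 0.91. Of 11 pericyte and smooth muscle genes 8 rose, and those with the smallest adjusted p were Des at 5.30 ± 0.62, Myh11 at 5.30 ± 0.86, Notch3 at 5.56 ± 0.96 and Rgs5 at 5.61 ± 0.98. Of 11 tested fibroblast and fibrosarcoma genes 6 rose, among them Sparc at 3.99 ± 0.85, Postn at 3.06 ± 0.75, Fbn1 at 2.94 ± 0.78 and Col3a1 at 3.02 ± 0.81.

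Zbtb46 and the endothelial sum had the same order among the iron positive libraries, with 3R and 4R highest. In the iron positive libraries 3L, 3R, 4R and 5L the endothelial list summed to 208, 1763, 1103 and 278 CPM, while Zbtb46 stood at 2.14, 7.86, 7.28 and 2.95 CPM. Per 1000 CPM of endothelial genes, Zbtb46 measured 17.3 to 33.3 CPM in the iron negative and 4.46 to 10.6 CPM in the iron positive libraries, which do not overlap. Fscn1 had the same order of iron positive libraries at 21.6, 191, 96.7 and 38.7 CPM. The fibroblast and fibrosarcoma list had it too, at 535, 5035, 1847 and 596 CPM, as did the pericyte and smooth muscle list, at 98.1, 759, 523 and 165 CPM. The part of endothelial, mural, fibroblast or tumor cells in the rise of Zbtb46 and Fscn1 was not tested, and from bulk RNA it cannot be told apart from dendritic cells.

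**Figure D3:**
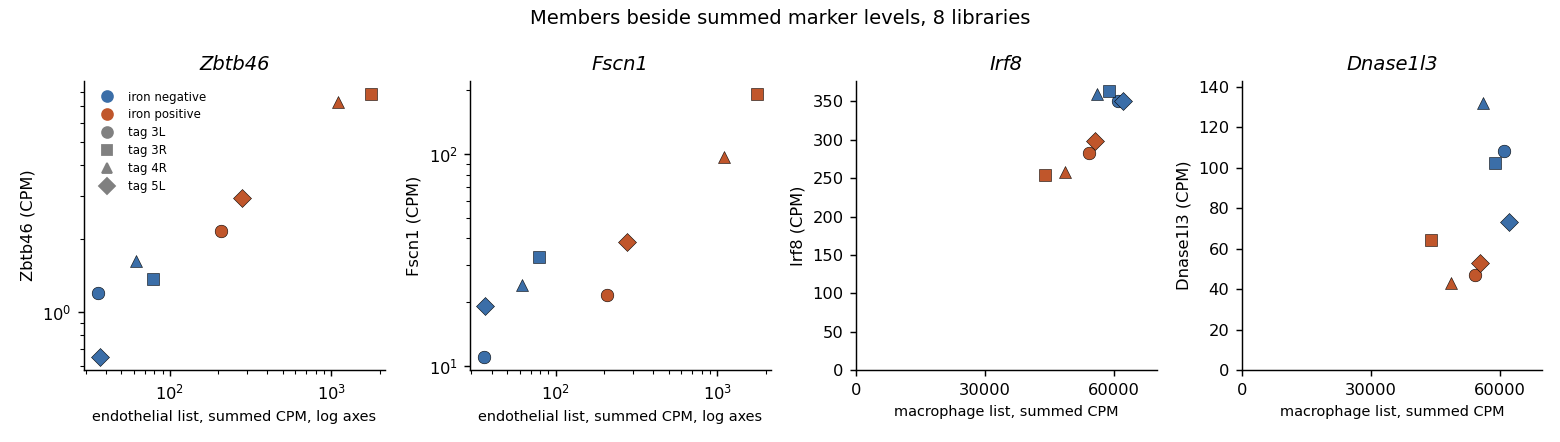
CPM of Zbtb46 and Fscn1 against the summed CPM of the endothelial list (log axes), and of Irf8 and Dnase1l3 against the macrophage list (linear axes from 0), with 1 point per library. The iron positive 3R and 4R lie highest in both endothelial panels, and for Dnase1l3 all iron positive libraries lie below all iron negative ones.

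Part of the macrophage list was lower in the iron positive libraries, as were the members that fell. None of its 13 genes was called higher and 4 were called lower (median log2 fold change -0.30). Its sum was 56163 to 62228 CPM in the iron negative and 43948 to 55549 CPM in the iron positive libraries. Apoe alone gave 29296 ± 1736 and 23835 ± 2388 CPM of it, so values scaled to this list rest largely on Apoe. The CSF1 receptor Csf1r fell by 0.61 ± 0.11 on the log2 scale, Adgre1 (F4/80) by 0.43 ± 0.08, the complement gene C1qc by 0.39 ± 0.09 and the Fc receptor Fcgr1 by 0.28 ± 0.07. The other 9 were not called. Among them Lyz2 stood at 0.11 ± 0.15, Mrc1 at 0.11 ± 0.17 and Mertk at 0.05 ± 0.12. The rest had negative values, such as Cd68 at -0.10 ± 0.13 and Apoe at -0.30 ± 0.13. Scaling each library to the macrophage list in place of all genes moved the median of all genes from -0.01 to 0.24. It changed the split of all calls from 1133 higher and 695 lower to 2317 higher and 53 lower, or 17.4% and 0.397%. On that scale Irf8 was at -0.14 ± 0.08 (adjusted p = 0.187) and Batf3 at -0.58 ± 0.23 (adjusted p = 0.0978), so both lost their calls. Dnase1l3 kept its call at -0.76 ± 0.23 (adjusted p = 0.0482), Zbtb46 stood at 2.36 ± 0.54 (adjusted p = 0.0215), and Fscn1 was called at 2.33 ± 0.69 (adjusted p = 0.0473).

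Per 1000 CPM of the macrophage list, Irf8 measured 5.63 to 6.41 CPM in the iron negative and 5.23 to 5.77 CPM in the iron positive libraries, which overlap. Dnase1l3 on that scale was 1.18 to 2.35 against 0.87 to 1.46 CPM, which overlap as well. Batf3 was 0.16 to 0.20 against 0.07 to 0.15 CPM, which do not overlap. Other immune lists were small. Of 3 tested B and plasma cell genes 1 fell (Ighm, log2 fold change -1.03 ± 0.17), and 7 of the 9 listed, Ms4a1 among them, stayed below 1 CPM in every library. Of 6 tested T and NK cell genes 1 fell (Cd4, -0.79 ± 0.14). In the iron negative libraries Cd4 stood at 31.8 ± 5.05 CPM, but Cd3d at 1.24 ± 0.55 and Trac at 1.27 ± 0.81 CPM. Of 6 tested neutrophil genes 3 rose, S100a8 at 2.48 ± 0.52, S100a9 at 1.99 ± 0.43 and Mmp8 at 4.11 ± 0.78. The other 3 did not pass, Retnlg at 1.72 ± 0.62, Cxcr2 at 0.45 ± 0.34 and Csf3r at -0.15 ± 0.07. Ly6g reached at most 0.04 CPM. The part of these immune lists in the members' values was not tested. With the tag as a block, 8 macrophage genes and 3 T and NK cell genes were called lower, and 10 fibroblast and fibrosarcoma genes higher.

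The wider dendritic cell programme was read from 5 lists of genes that are no members. Of the ligands above only Flt3l is among them. Of 93 genes 77 were tested, and 6 were called higher and 15 lower, with a median log2 fold change of -0.21 against -0.01 over all genes. The share called lower stood above the 5.21% of all genes, and the share called higher was close to 8.49%. Scaled to the macrophage list, the medians of the 5 lists lay between -0.10 and 0.15, below the 0.24 of all genes. At most 1 gene per list was then called lower, Cadm1 (edgeR adjusted p = 0.0485) and Ccr2 (0.0451). Some genes called lower in the fit to all genes stood high in the iron negative libraries, such as Fcer1g at 795 ± 35.6 and Itgax at 486 ± 93.3 CPM. Clec9a and Siglech, in contrast, stayed at 1.22 CPM or less. Which cells hold the RNA of these lists was not tested. All calls in the next paragraphs are from the fit to all genes.

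Among 19 tested progenitor and factor genes, 2 rose and 4 fell. Those that fell were Csf2ra, a chain of the GM-CSF receptor, from 476 ± 20.7 to 361 ± 43.5 CPM, Spi1, which encodes PU.1, from 477 ± 21.3 to 381 ± 37.5 CPM, Relb, an NF-kappaB subunit of mature dendritic cells, from 56.5 ± 2.78 to 42.9 ± 4.98 CPM, and Ikzf1 from 153 ± 7.60 to 112 ± 19.1 CPM. Kit, the stem cell factor receptor, rose from 1.22 ± 0.42 to 13.1 ± 13.6 CPM, and Cbfa2t3 from 2.83 ± 0.90 to 10.4 ± 6.64 CPM. Both were highest in the iron positive 3R, then 4R, the order seen for Zbtb46. Ikzf1 and Cbfa2t3 were named after their values were seen.

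Of 12 tested cDC1 genes 1 rose and 3 fell. Cadm1, an adhesion molecule of cDC1, fell from 116 ± 18.5 to 65.9 ± 9.23 CPM, a log2 fold change of -0.82 ± 0.14. The lysosomal enzymes Naaa and Ppt1 changed by -0.46 ± 0.07 and -0.22 ± 0.06. Cd24a rose from 1.0 ± 0.27 to 4.62 ± 3.57 CPM and was highest in the iron positive 3L, unlike Zbtb46. Clec9a, named after its values were seen, had a log2 fold change of 1.20 ± 0.44 and did not pass (edgeR adjusted p = 0.104).

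Of 14 tested cDC2 and monocyte-derived genes 2 rose and 4 fell. Itgax, the integrin CD11c, fell from 486 ± 93.3 to 267 ± 55.5 CPM and the chemokine receptor Ccr2 from 208 ± 16.05 to 112 ± 28.4 CPM. Mgl2, a lectin, and Fcer1g, an Fc receptor chain, also fell, by 0.81 ± 0.21 and 0.30 ± 0.08 on the log2 scale, and were named after their values were seen. Esam rose from 1.23 ± 1.22 to 51.4 ± 44.7 CPM, and it stands in the endothelial list as well. Cd1d1, which presents lipids to NKT cells, rose from 6.69 ± 0.99 to 11.3 ± 2.43 CPM.

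Of 23 tested genes of mature, migratory dendritic cells 1 rose and 3 fell. The costimulatory genes Cd86 and Cd40 fell by 0.50 ± 0.10 and 0.30 ± 0.07 on the log2 scale, and the chemokine Ccl5 by 0.58 ± 0.13. Cacnb3, a calcium channel subunit, rose from 0.93 ± 0.21 to 4.83 ± 3.86 CPM, again with 3R and 4R highest. With the tag as a block, 8 genes of this list and 7 cDC2 and monocyte-derived genes were called lower. Of 9 tested plasmacytoid genes none rose and 1 fell. This was Lair1, an inhibitory receptor, which stood at 294 ± 14.7 CPM in the iron negative libraries and fell by 0.55 ± 0.11 on the log2 scale. The block added 1 plasmacytoid gene to those called lower, for 2 in all.

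**Figure D4:**
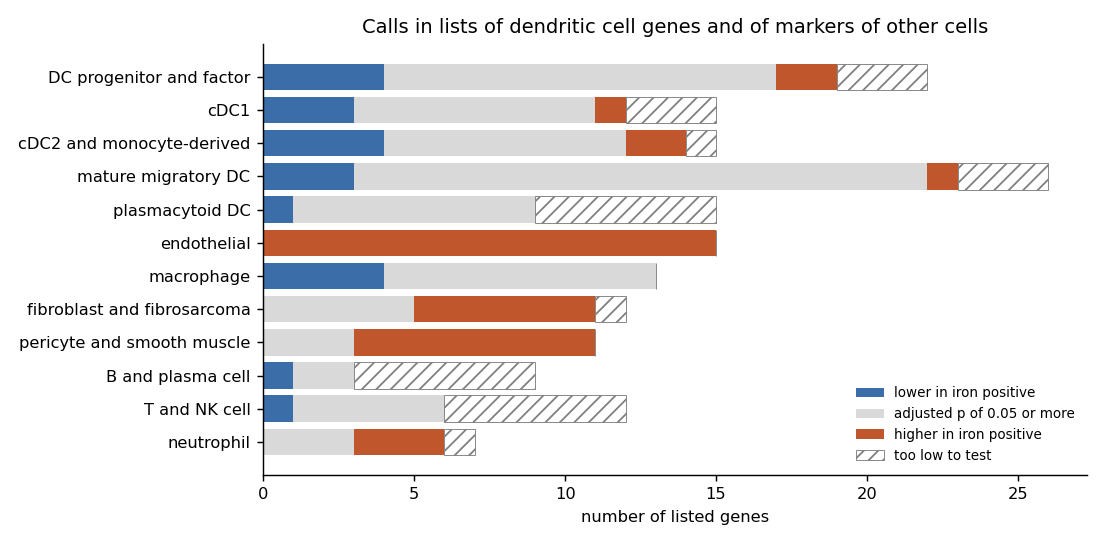
Number of genes called lower (blue), called higher (orange), not past the threshold (grey) and too low to test (hatched) in each list. The endothelial list is orange throughout (15 of 15), and each of the first 4 dendritic cell lists holds more blue than orange.

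Zbtb46 was also read by transcript, because a retained-intron form carried much of its low level. Its coding transcripts summed to 0.16, 0.35, 0.31 and 0.07 TPM in the iron negative libraries and to 0.50, 2.79, 2.29 and 0.75 TPM in the iron positive ones. The retained-intron transcript Zbtb46-203 gave 0.32, 0.22, 0.31 and 0.18 TPM and then 0.42, 0.38, 0.44 and 0.33 TPM. Means of the coding forms differed 7.03-fold and those of the retained-intron form 1.53-fold, both in the same direction, with no test of either. The whole gene held 15 to 36 estimated counts in the iron negative and 43 to 167 in the iron positive libraries. The split between forms therefore rests on few counts in the iron negative libraries. The share of Zbtb46-201 in the gene was 19.3% ± 6.17 in the iron negative and 33.7% ± 12.9 in the iron positive libraries (exact two-sided permutation test, p = 0.114, adjusted over 3 genes p = 0.30). The coding share of Batf3-201 (67.2% ± 4.27 and 71.4% ± 3.87, exact p = 0.20) and the share of Irf4-202 (48.2% ± 36.0 and 51.1% ± 40.9, exact p = 0.943) did not pass either. With 4 libraries against 4 the smallest p is 0.0286, so a single gene could not pass after adjustment over 3. Irf4-201 and Irf4-202 are 4764 and 4761 bases long, and their counts moved from one to the other between libraries.

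**Figure D5:**
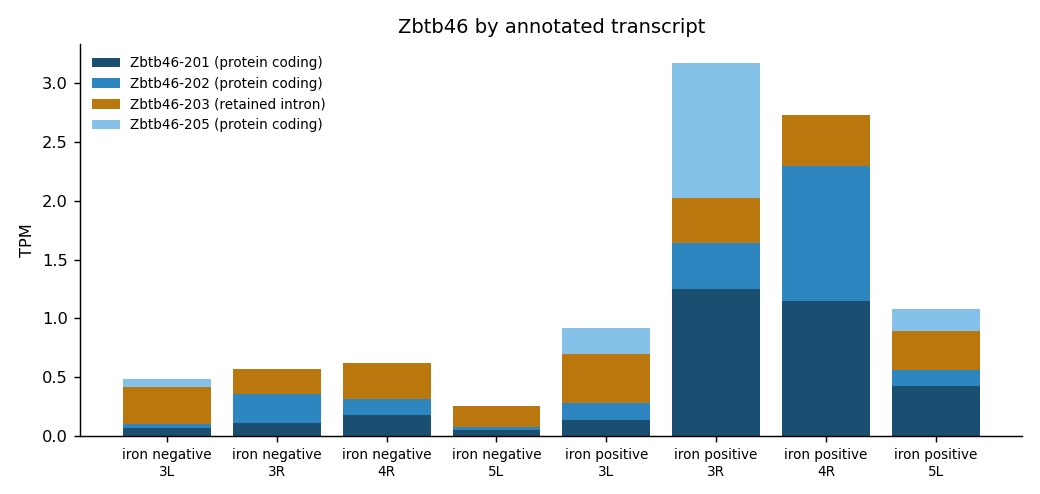
TPM of Zbtb46 by annotated transcript in each library, stacked from 0. The retained-intron form lies between 0.18 and 0.32 TPM in the iron negative and between 0.33 and 0.44 TPM in the iron positive libraries, and the coding forms are taller in every iron positive library.

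Genes with the most similar profile were listed for each tested member, by Pearson correlation of log2(CPM + 1) over the 8 libraries among 9857 genes. These 8 points share the fraction contrast and the tags, so the values describe likeness only. For Zbtb46 they were Zfp366 (r = 0.996), Emcn (0.991) and Notch4 (0.990). Of these Emcn stands in the endothelial list, and Zfp366 and Notch4 stand in none of the lists. For Fscn1 they were Afap1 (0.998), Cnn3 (0.998) and Tgfb1i1 (0.996), and for Dnase1l3 Cadm1 (0.989), Oxa1l (0.980) and Tlr12 (0.975). Tlr12, a receptor of the innate immune system, went from 120, 135, 132 and 89.7 CPM to 46.1, 68.2, 43.6 and 62.1 CPM, and its low iron negative 5L repeats that of Dnase1l3. Irf8 was closest to Ptk2b (0.991) and Il6ra (0.990), Batf3 to Tpcn1 (0.985), Ring1 (0.978) and Adnp (0.974), and Irf4 to Ankrd44 (0.991), Slf2 (0.985) and Ticam2 (0.981). The low members Xcr1 (Mief2 0.974, Pgap1 0.964) and Ccr7 (Uap1 0.973, Dnah2 0.965, Siva1 0.960) have profiles set by few counts.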

How the data were processed

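The authors quantified transcripts with kallisto 0.46.2 against mm10, per the submitters' processing notes, which leave the transcript release unnamed. Per the file headers, the authors' tables give each transcript an estimated count, a TPM value (corrected for effective length and depth) and 2 lengths, used as other values. The 119414 transcripts were joined to GENCODE release 21 for mouse by identifier without version. Of these 116728 matched, and the other 2686 held 0.888% to 0.961% of a library's estimated counts and were left out. Estimated counts were summed per gene without regard to strand and rounded; totals were 19.04 to 24.31 M per library. Symbols with several gene identifiers were summed in the lists.

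Genes passing filterByExpr (13343) were scaled by TMM and tested for the fraction, with no other term, in edgeR 4.0.16 under R 4.3.3 (quasi-likelihood F-test). The threshold was 0.05 after Benjamini-Hochberg adjustment over all of them. SEs are the coefficient divided by the square root of F, which is approximate. CPM and fold changes were computed here. Alternatives used DESeq2 1.42.0, limma 3.58.1, other scalings and filters, and 7 libraries in turn. The test was checked on simulated data, where it recovered 65 of 100 genes changed 2-fold and 92 of 100 changed 4-fold, with 4 false calls. Same-tag libraries deviated together, with correlations of 0.53 (3L), 0.52 (3R), 0.27 (4R) and 0.30 (5L). Unlike tags reached 0.26 (iron negative 3R with iron positive 4R), 0.23 (3L with 5L), 0.21 (4R with 3R) and 0.13 (5L with 3L). The tags were taken to pair the fractions because each same-tag value exceeded 0.1. These unlike-tag values exceeded it too, so this rule does not establish the pairing, and no other source gives it. Values with the tag as a block are given where they change a call.

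The members and lists were chosen with earlier results of these data known. Named genes are all members, up to 4 genes per list with the smallest adjusted p among those called (otherwise the 2 highest expressed), and the 3 genes most alike in profile, with a mean of at least 5 CPM. A few genes that this rule names are not reported here.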

Additional observations from a re-analysis of the deposited data

Results flagged for a closer look

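Of 26 groups of 4 libraries checked for a value far from the others, 2 were marked, and chance marks about 1 in 20. In the iron positive group, Batf3 was 3.44 CPM in library 4R, while the other 3 libraries lay between 6.70 and 7.28 CPM. The share of Zbtb46-201 in the gene was 14.4% in the iron positive library 3L and 39.1% to 41.9% in the other 3.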

How the results depend on the processing

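The count of members called higher (1) was 2 with the replicate block, with DESeq2 and when scaled to the macrophage list. It was 0 with limma voom and with limma on log2(TPM + 0.1) or log2(TPM + 1), where 2 members were higher at an unadjusted p under 0.05. The count called lower (3) was 1 with macrophage list scaling, and 2 with limma voom and with library totals only. Leaving out 1 library in turn gave 0 to 2 members called higher and 0 to 3 lower. The log2 fold change of Ccr7 then ranged from -1.21 to 0.0604 (without the iron negative library 3L, the reversal). The count of members with a changed transcript share was 0 under every alternative run, but with so few libraries a single gene cannot pass after adjustment, so this count shows nothing about stability. With DESeq2 Fscn1 was called (adjusted p = 0.0281). The block changed no other member's call. Over all genes, calls numbered 1133 higher and 695 lower, and 1705 and 1253 with the block, 1959 and 1053 with DESeq2, 189 and 273 with limma voom, 413 and 205 with limma on log2(TPM + 1), 706 and 270 on log2(TPM + 0.1), and 1172 and 362 with library totals only. Of 151 comparisons of a member's fold change with an alternative, 122 kept direction and side of the threshold, 24 lost the call, 4 gained it and 1 reversed. Counts under about 15 per library limit Xcr1, Flt3 and Cd209a. The cause of these changes was not tested.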
